A study of Homo sapiens with 4 samples.

Results

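The SR splicing factor family was followed in K562 cells through 10 genes: SRSF1, SRSF2, SRSF3, SRSF4, SRSF5, SRSF6, SRSF7, SRSF9, SRSF10 and SRSF11. A gene was represented by the entry of the deposited table whose name list held its symbol, and where several entries did, by the one with the highest mean count. This gave 10 entries of 64873 in all. K562 is an erythroleukemia line, and every library came from K562 cells that overexpress U2AF1 with the S34F substitution (K562-U2AF1S34F), so the controls carry the mutant too. The 2 control libraries came from cells given DMSO, the solvent, and the 2 treated libraries from cells given SF1-8 at 30 µM for 48 h. SF1-8 is a small molecule found in a screen of fragments against the U2AF homology motif of U2AF1, the protein that reads the AG of the 3′ splice site together with U2AF2. Neither cells with wild-type U2AF1 nor untreated cells are among these libraries, and no label says whether replicates were separate cultures, so p-values measure only the spread between these libraries. Nor do the labels say whether the overexpressing line is 1 clone.

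SR proteins bind exonic enhancers in the pre-mRNA through RNA recognition motifs and contact other splicing proteins through a domain rich in arginine and serine. Bound to an exon, they help the U1 snRNP settle on the 5′ splice site and U2AF on the 3′ splice site. Kinases of the SRPK and CLK families phosphorylate the arginine-serine domain and set where the proteins sit in the cell and what they bind. Many SR genes also carry a so-called poison exon, whose inclusion puts a stop codon into the mRNA and sends it to nonsense-mediated decay, so that a gene's RNA level is tied to its own splicing. In the GENCODE release 29 annotation, the 10 genes have 39 protein-coding transcripts, 28 with a retained intron and 22 marked for nonsense-mediated decay, with at least 1 of the last kind in every one of the 10 genes. The values below are per gene entry and do not separate these transcripts.

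The question was whether the RNA of these factors differed between SF1-8 and DMSO. None of the 10 passed the test: in edgeR's quasi-likelihood fit, with p adjusted by Benjamini-Hochberg over 26167 tested entries, adjusted p ran from 0.970 to 0.993. Over all tested entries the same rule called 11, or 0.0420%. At an unadjusted p under 0.05, 2 of the 10 members stood, SRSF10 and SRSF11, both higher with SF1-8, where 4.33% of all tested entries did. DESeq2 also called none of the members, against 0.477% of the entries to which it gave an adjusted p, and it placed 2 members at an unadjusted p under 0.05, where 3.50% of all entries it tested stood. Of the 10 fitted log2 fold changes, 4 were above 0 and 6 below, with a median of -0.039 beside -0.011 over all tested entries.

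The promoter windows of SRSF9, SRSF10 and SRSF11 are shown because these were the members whose SF1-8 and DMSO values did not overlap. Sequences come from RefSeq on GRCh38.p14 and run 5′ to 3′ on the gene's strand, from 250 bases before to 50 after the annotated start. Capitals mark a match to any motif searched, and lower case the rest. SRSF9 lies at chr12:120469699-120469998 on the minus strand, SRSF10 at chr1:23980278-23980577 on the minus strand, and SRSF11 at chr1:70205446-70205745 on the plus strand.
SRSF9: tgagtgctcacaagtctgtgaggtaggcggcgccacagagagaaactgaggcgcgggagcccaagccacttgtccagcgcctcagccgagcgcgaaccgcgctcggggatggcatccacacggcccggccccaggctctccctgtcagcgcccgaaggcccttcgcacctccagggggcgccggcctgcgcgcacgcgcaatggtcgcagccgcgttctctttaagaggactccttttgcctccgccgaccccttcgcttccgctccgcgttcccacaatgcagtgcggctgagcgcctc
SRSF10: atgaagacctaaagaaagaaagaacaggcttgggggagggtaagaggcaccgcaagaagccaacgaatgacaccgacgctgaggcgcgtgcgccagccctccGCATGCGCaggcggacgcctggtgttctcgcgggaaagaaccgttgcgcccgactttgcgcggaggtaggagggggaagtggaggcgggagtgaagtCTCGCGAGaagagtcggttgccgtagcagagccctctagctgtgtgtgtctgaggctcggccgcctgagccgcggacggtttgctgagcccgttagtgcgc
SRSF11: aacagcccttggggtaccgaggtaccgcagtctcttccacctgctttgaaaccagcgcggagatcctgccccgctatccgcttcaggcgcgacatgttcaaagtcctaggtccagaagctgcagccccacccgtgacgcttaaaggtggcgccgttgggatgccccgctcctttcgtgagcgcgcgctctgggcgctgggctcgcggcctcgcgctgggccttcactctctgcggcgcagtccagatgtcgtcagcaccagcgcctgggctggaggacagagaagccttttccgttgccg
Among the members, 9 of 10 had a window in the table, all but SRSF2, and where a gene had more than 1 the window nearest to the start of its entry was read.

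The 8 motifs were searched as exact letters on both strands, and none of the 3 windows shown held more than 2 of them. SRSF10 held GCATGCGC, the core recognised by NRF1, which 3.05% of the 35116 RefSeq windows of this length held, and CTCGCGAG, a palindrome, which 1.02% held. SRSF4 was the other member with CTCGCGAG. SRSF9 and SRSF11 held none of the 8. Over the 9 windows, GGGCGG, the GC box, was found in 3 (45.0% of all windows), CCGGAAG, an ETS site, in 2 (10.3%), CCAAT in 1 (34.6%) and TATAAA in 1 (11.5%). CACGTG and TGACGTCA were found in 0 (7.26% and 1.85% of all windows). GC content was 68.3% for SRSF9, 63.0% for SRSF10 and 64.7% for SRSF11, within a range over the members from 55.0% for SRSF7 to 74.7% for SRSF4, beside a median of 58.7% over all windows.

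SRSF10 and SRSF11 are less typical members of the family. SRSF10, at 1:23963465-23980927 on the minus strand of GRCh38, encodes a protein that acts mainly as a sequence-dependent activator when phosphorylated and as a general repressor when dephosphorylated, as after heat shock. Its level, as FPKM (fragments set relative to the length of the entry and the depth of the library), was 8.12 and 7.97 in the DMSO libraries and 9.02 and 9.46 in the SF1-8 libraries. Both treated values lay above both controls, and the values within each group were close to each other. The log2 fold change on the counts was 0.23 ± 0.0715 (SE, n = 2 per group; 95% interval 0.045 to 0.41), with an unadjusted p of 0.0235 and an adjusted p of 0.970 in edgeR's quasi-likelihood fit (Benjamini-Hochberg). The unadjusted p rose above 0.05 without DMSO 1 (0.0727), without SF1-8 1 (0.0631) and without SF1-8 2 (0.131), each in an edgeR fit.

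SRSF11, at 1:70205682-70253052 on the plus strand, encodes an arginine-serine protein that is known to contact U2AF2. It read 8.51 and 9.33 FPKM with DMSO and 11.3 and 10.3 FPKM with SF1-8. Again the groups did not overlap, with the highest value in SF1-8 1 and the lowest in DMSO 1. Its log2 fold change of 0.30 ± 0.104 (SE; 95% interval 0.037 to 0.57) was the highest of the 10, with an unadjusted p of 0.0325 and an adjusted p of 0.970 by edgeR with Benjamini-Hochberg adjustment. Without DMSO 1 the fold change was 0.20 and the unadjusted edgeR p 0.109, and without SF1-8 1 they were 0.23 and 0.140. An annotated antisense gene, AL353771.1, overlaps SRSF11, and whether reads were counted by strand is not given in the sources used here, so reads of the pair cannot be told apart.

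SRSF1, SRSF4, SRSF5, SRSF6 and SRSF9 encode proteins with a pair of RNA recognition motifs. Of these 5, 1 had a log2 fold change above 0 and 4 below, from -0.25 to 0.12. SRSF9, at 12:120461672-120469748 on the minus strand, is the one above 0. Its FPKM was 31.7 in both DMSO libraries, and 32.3 and 35.2 with SF1-8. The controls were all but equal and lay below both treated values, of which the lower stood close to them. The log2 fold change was 0.12 (95% interval -0.084 to 0.32; adjusted p = 0.970 by edgeR), and the gene GATC overlaps it on the opposite strand.

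SRSF1, the founding member, promotes exon inclusion and also acts in mRNA export, translation and decay. Its entry, at 17:57989038-58007261 on the minus strand, is shared with AC015813. The level was 15.9 and 12.7 FPKM with DMSO, and 13.0 and 14.2 FPKM with SF1-8. Both treated values fell between the controls, and the log2 fold change was -0.042 (95% interval -0.31 to 0.23; adjusted p = 0.983 by edgeR). SRSF4 and SRSF5 are close relatives of SRSF6 in the splicing of alternative exons. SRSF4, at 1:29147743-29181900 on the minus strand, in an entry shared with AL357500, was at 6.59 and 5.61 FPKM with DMSO, and 5.37 and 6.0 FPKM with SF1-8. SRSF5, at 14:69726900-69772004 on the plus strand, was at 7.18 and 6.47 FPKM with DMSO, and 6.14 and 6.83 FPKM with SF1-8. In both genes DMSO 1 was the highest library, SF1-8 1 the lowest, and the groups overlapped. Their log2 fold changes were -0.072 (95% interval -0.32 to 0.18) for SRSF4 and -0.046 (95% interval -0.30 to 0.20) for SRSF5.

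SRSF6 had the lowest fold change of the 10, with a wide interval. It read 6.03 and 4.94 FPKM with DMSO, and 5.50 and 3.54 FPKM with SF1-8. SF1-8 2 was the lowest library and SF1-8 1 lay between the controls, a 1.55-fold gap between the treated libraries. The log2 fold change was -0.25 ± 0.220 (SE; 95% interval -0.81 to 0.31), with an unadjusted p of 0.311 and an adjusted p of 0.970 by edgeR. Leaving out SF1-8 1 gave -0.60, with an unadjusted edgeR p of 0.00496 and an adjusted p of 0.477, and leaving out SF1-8 2 gave 0.045. The entry runs over 20:43457893-43585632 and names SRSF6, AL031681, L3MBTL1, Z98752 and SGK2, so its value is a joint one for these genes.

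SRSF2, SRSF3 and SRSF7 encode proteins with a single RNA recognition motif, and SRSF7 also has a zinc knuckle. SRSF2, at 17:76734115-76737333 on the minus strand, is itself mutated in myeloid neoplasms. It read 46.3 FPKM in DMSO 1 and 21.3 in DMSO 2, and 22.0 in SF1-8 1 and 46.5 in SF1-8 2. The gene thus stood at 2 levels, each held by 1 library of either group, with a 2.18-fold gap between the controls and a 2.11-fold gap between the treated libraries. The log2 fold change was 0.061 ± 0.464 (SE; 95% interval -1.12 to 1.24), with an adjusted p of 0.993 by edgeR, so that a change by a factor of 2 in either direction lies inside the interval.

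The gap at SRSF2 was much wider than that of most entries. Over the 5765 tested entries with a mean of at least 5 FPKM, the median ratio of the higher to the lower library was 1.08 in DMSO and 1.06 in SF1-8. A gap of at least 2-fold in both groups was found in 48 of them (0.833%), of which 15 were high in DMSO 1 and SF1-8 2, as SRSF2 was, and 11 in the other 2 libraries. The SRSF2 entry also names MIR636, a microRNA inside it, and MFSD11 lies across it on the opposite strand. The MFSD11 entry, which also names METTL23 and AC005837, read 6.63 and 4.66 FPKM with DMSO, and 7.22 and 7.43 FPKM with SF1-8. The part of this overlap in the SRSF2 values was not tested.

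**Figure D1:**
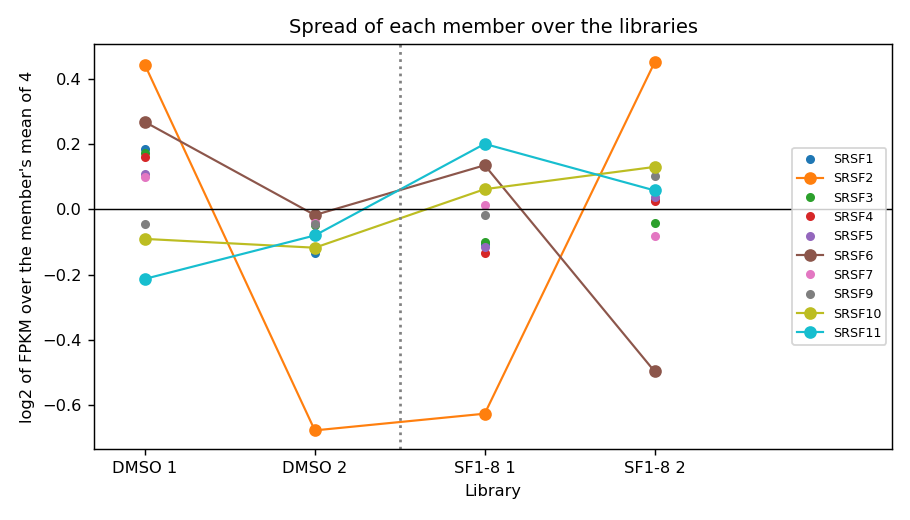
Log2 of each member's FPKM in a library over that member's mean of the 4 libraries, with the libraries on the x axis and 1 colour per member; lines join the points of SRSF2, SRSF6, SRSF10 and SRSF11 and carry no time order. SRSF2 is high in DMSO 1 and SF1-8 2 and low in the other 2 libraries, SRSF6 is lowest in SF1-8 2, and SRSF10 and SRSF11 lie below 0 in both controls and above 0 in both treated libraries.

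SRSF3, the smallest of the SR proteins and a factor in export and 3′ end choice, lies at 6:36594353-36605600 on the plus strand. It was at 25.4 and 21.8 FPKM with DMSO, and 21.0 and 21.9 FPKM with SF1-8. DMSO 1 stood above the other 3 libraries, which were close together. The log2 fold change was -0.11 (95% interval -0.31 to 0.094; adjusted p = 0.970 by edgeR). SRSF7, at 2:38743599-38751494 on the minus strand, was at 26.6 and 24.1 FPKM with DMSO, and 25.0 and 23.4 FPKM with SF1-8. Its groups overlapped, and its log2 fold change of -0.036 (95% interval -0.24 to 0.16) was the nearest to 0 of the 10.

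**Figure D2:**
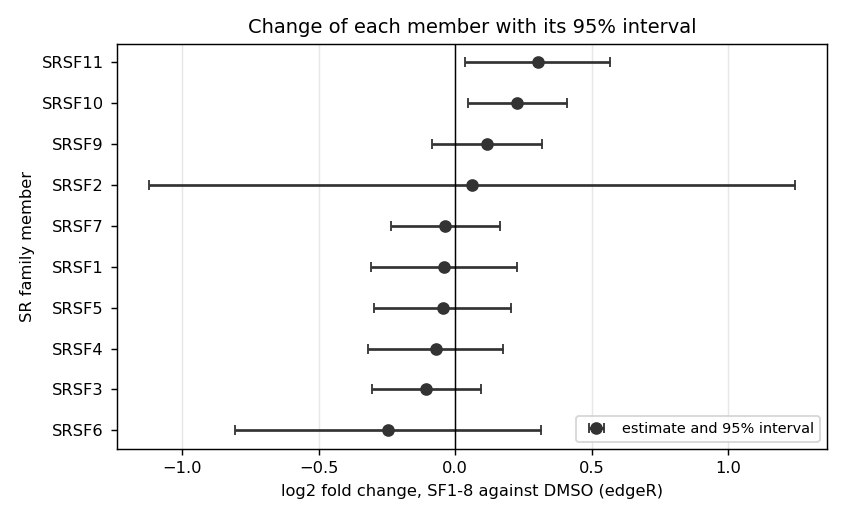
Log2 fold change of each member, SF1-8 against DMSO, from edgeR (points), with its 95% interval (bars) over 2 libraries per group. The intervals of SRSF10 and SRSF11 lie above 0 before any adjustment for the number of entries tested, and that of SRSF2 is the widest, from -1.12 to 1.24.

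The intervals, which are not adjusted for the number of entries tested, apply to the entries, so that those of SRSF1, SRSF2, SRSF4 and SRSF6 cover the genes that share the entry and do not bound the named gene alone. For 8 of the 10 entries the interval lay within a 1.5-fold change in either direction, the exceptions being SRSF2 and SRSF6. In 3 of the 10 both SF1-8 FPKM values lay above both DMSO values, beside 14.2% of all tested entries, and in 0 of the 10 both lay below, beside 20.0%. With 2 libraries per group, an exact permutation test of a single gene cannot give a two-sided p below 0.333. DMSO 1 was the highest library for 6 members, SRSF1, SRSF3, SRSF4, SRSF5, SRSF6 and SRSF7, and the lowest for SRSF11. It was also the shallowest library, and this depth difference's part in the FPKM values was not tested.

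Summed over the family, the groups overlapped. The summed FPKM of the 10 was 182.2 and 145.9 in the DMSO libraries and 150.7 and 177.4 in the SF1-8 libraries, a mean of 164 in either group (SD 25.7 and 18.8, n = 2 each). SRSF2 made up 25.4%, 14.6%, 14.6% and 26.2% of that sum in the order DMSO 1, DMSO 2, SF1-8 1 and SF1-8 2. Of the family's counts, which are not set relative to length, it made up 10.9%, 5.84%, 5.72% and 11.6% in the same order, so its share depends on the scale, with DMSO 1 and SF1-8 2 the higher libraries on both. Without SRSF2 the sums were 135.9 and 124.6 with DMSO and 128.7 and 130.8 with SF1-8, with SDs of 8.00 and 1.49, and both treated sums fell between the controls. In counts, the 10 entries took 0.136% to 0.161% of a library.

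**Figure D3:**
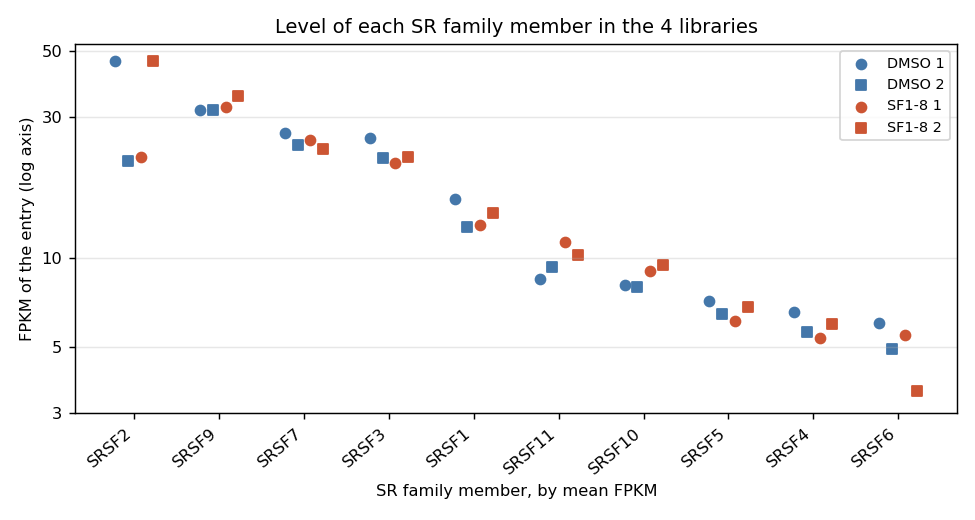
FPKM of each member in the 4 libraries on a log axis, members ordered by their mean; blue is DMSO and orange SF1-8, circles are replicate 1 and squares replicate 2. SRSF9 lies above 30 in every library, SRSF2 spans 21.3 to 46.5, and SRSF4, SRSF5 and SRSF6 lie lowest.

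Per length of the entry, the members ranged from a mean of 34 FPKM for SRSF2 to 5.00 FPKM for SRSF6. Between them came SRSF9 at 32.7, SRSF7 at 24.8, SRSF3 at 22.5, SRSF1 at 13.9, SRSF11 at 9.86, SRSF10 at 8.64, SRSF5 at 6.65 and SRSF4 at 5.89 FPKM. Neighbours whose ranges over the 4 libraries did not overlap were SRSF9 and SRSF7, SRSF3 and SRSF1, SRSF1 and SRSF11, and SRSF10 and SRSF5. The ranges overlapped between SRSF2 and SRSF9, SRSF7 and SRSF3, SRSF11 and SRSF10, SRSF5 and SRSF4, and SRSF4 and SRSF6. SRSF2 ranked 1 in DMSO 1 and SF1-8 2, 4 in DMSO 2 and 3 in SF1-8 1.

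This order depends on what the entries hold. The length that relates the count to the FPKM was 5.78 times the exonic length of the gene itself for SRSF6, 3.44 times for SRSF1, 1.92 times for SRSF11, 1.45 times for SRSF4 and 1.24 times for SRSF10, and within 10% of it for the other 5. The same counts over the gene's own exonic length, a scale added after the data were seen, are an upper bound where other genes lend reads to the entry. On it SRSF1 ranked 1 with a mean of 48.0 FPKM, in place of 5, and SRSF6 ranked 4 with 28.9 FPKM, in place of 10. SRSF11 read 18.9, SRSF10 10.8 and SRSF4 8.55 FPKM on this scale. The scale does not touch the comparison of SF1-8 with DMSO, which sets an entry against itself.

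**Figure D4:**
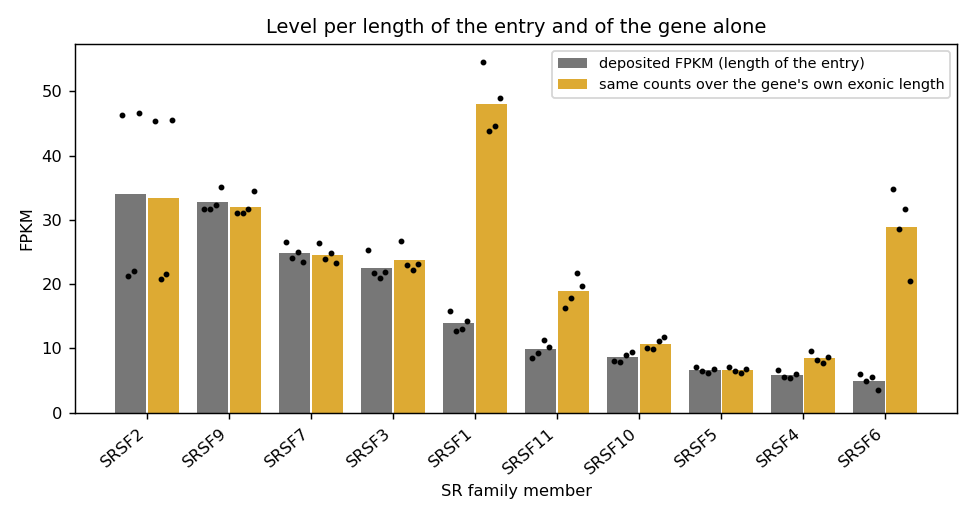
Mean FPKM of each member as deposited (grey) and with the same counts set over the gene's own exonic length (yellow); dots are the 4 libraries. SRSF1 goes from 13.9 to 48.0 and SRSF6 from 5.00 to 28.9, while SRSF2, SRSF7, SRSF9 and SRSF5 stay nearly where they were.

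Another 4 entries name SRSF3, SRSF4 or SRSF5 and were not used, with counts from 0 to 960 per library. Of these, 3 were tested and 0 had an unadjusted edgeR p under 0.05, beside 4.33% of all tested entries. The 8 entries of annotated SR pseudogenes held 0 to 35 reads per library, far below those of their parent genes. Of the remaining genes with an SRSF symbol, SRSF8, a retrocopy-derived gene, was at 7.09 and 7.06 FPKM with DMSO, and 5.85 and 6.82 FPKM with SF1-8. Both treated values lay below the controls, with a log2 fold change of -0.13 ± 0.116 (SE) and an adjusted p of 0.970 by edgeR with Benjamini-Hochberg adjustment. SRSF12 was listed at 0 in all 4 libraries and was not tested.

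No gene of 5 further lists, of proteins that work with or against the family, passed the test. Of all tested entries, edgeR called 0.0420% and DESeq2 0.477%, and 4.33% had an unadjusted edgeR p under 0.05. Beside these shares, counts of 0 in lists of this size are read as no result about any of the lists. Among 24 SR-like and SR-related proteins, which share the arginine-serine domain, 0 passed the edgeR test after Benjamini-Hochberg adjustment, 0 had an unadjusted p under 0.05 and DESeq2 called 0; 12 fold changes were above 0 and 12 below, with a median of -0.0055. They ran from -0.22 for LUC7L, a U1 snRNP partner, to 0.21 for RSRC1. TRA2B, a splicing activator that binds GA-rich enhancers, read 12.4 and 12.4 FPKM with DMSO, and 12.9 and 13.4 FPKM with SF1-8 (log2 fold change 0.11, adjusted p = 0.970 by edgeR). Among 13 genes for kinases, phosphatases and transport of SR proteins, 0 were called by edgeR or DESeq2 and 0 had an unadjusted edgeR p under 0.05, with a median of 0.0029. These ran from -0.30 for DYRK1A to 0.12 for PRPF4B, both nuclear kinases. SRPK1, the main cytoplasmic SR kinase, was at 34.6 and 32.1 FPKM with DMSO, and 32.0 and 33.2 FPKM with SF1-8, and CLK1, a nuclear one, had a log2 fold change of 0.038. Further tested entries, all with lower counts, gave log2 fold changes of 0.46 and -0.15 for LUC7L, -2.03 for DYRK1A, -0.034 for PRPF4B and 0.025 for CLK1, with unadjusted edgeR p from 0.117 to 0.969.

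Among 10 partners at the splice sites, 0 were called by edgeR or DESeq2, 1 had an unadjusted p under 0.05 in each tool (4.33% of all tested entries in edgeR and 3.50% in DESeq2) and the median was -0.013. With 10 genes, 1 such gene is read as no result about the list. In the edgeR fit that was SNRPA, a protein of the U1 snRNP, singled out after its values were seen. It read 23.0 and 21.2 FPKM with DMSO, and 27.7 and 26.5 FPKM with SF1-8 (log2 fold change 0.32, unadjusted p = 0.00988, adjusted p = 0.970 by edgeR). U2AF1, the protein that SF1-8 was screened against, was at 11.4 and 11.5 FPKM with DMSO, and 11.9 and 12.0 FPKM with SF1-8, a log2 fold change of 0.085 in cells that carry both the endogenous gene and the added mutant. U2AF2 had -0.058, and the list ran from -0.12 for SNRNP70, a U1 snRNP protein that SR proteins contact, to 0.47 for ZRSR2, a relative of U2AF1 that serves the minor spliceosome. Another 4 tested entries name ZRSR2, with mean counts of 14.8 to 124 per library, and their log2 fold changes were all below 0, from -1.79 to -0.24 (unadjusted edgeR p from 0.128 to 0.440). A further SNRPA entry, with a mean count of 79.5, had a log2 fold change of -0.054.

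Among 14 factors of nonsense-mediated decay, the route by which poison-exon transcripts are lost, 0 were called by edgeR or DESeq2 and 0 had an unadjusted p under 0.05 in edgeR, with a median of 0.0082. They ran from -0.11 for CASC3, of the exon junction complex, to 0.22 for the entry holding SMG8. That entry also names PRR11 and AC099850, so its value is a joint one. Of 6 hnRNP genes, whose proteins often oppose SR proteins, 0 were called by either tool and 0 had an unadjusted edgeR p under 0.05, with a median of 0.0084, from -0.24 for HNRNPH1 to 0.13 for PTBP1. Each list gene was read from its entry with the highest mean count. A further 2 tested entries name HNRNPH1, with mean counts of 49.8 and 19.0 per library, log2 fold changes of -1.10 and -0.80 and unadjusted edgeR p of 0.0278 and 0.441 (adjusted p = 0.970 for both).

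The libraries held 45522905 to 67554610 estimated counts over all entries, with DMSO 1 the shallowest. All 6 K562 markers were present in every library, with GATA1 at 75.9 to 79.1 FPKM. Their sum over 5 entries was 243.7 to 245.8 FPKM with DMSO and 222.1 to 240.2 FPKM with SF1-8. Of 6 markers of other cells, 0 stood at 0 in every library and 5 were above 0 in all 4. Their sum was 23.2 to 29.9 FPKM with DMSO and 22.6 to 22.7 FPKM with SF1-8. COL1A1, a fibroblast collagen, was at 5.39 and 2.60 FPKM with DMSO, and 1.21 and 0.0982 FPKM with SF1-8. CD3E, of T cells, was at 0.270 and 0.116 FPKM with DMSO, at 0.0338 in SF1-8 1 and listed at 0 in SF1-8 2. Their part in the members' values was not tested. In bulk RNA such as this, fewer cells of a kind and less RNA per cell cannot be told apart.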

How the data were processed

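RNA from 2 DMSO and 2 SF1-8 samples of K562-U2AF1S34F cells was depleted of rRNA and made into TruSeq total RNA libraries. The submitters' processing notes name cutadapt, FastQC, Bowtie2, HISAT2, StringTie and hg38, without roles, versions or order. The authors deposited FPKM, in which 0.0001 stands for 0, and estimated counts, already whole numbers, for 64873 entries, of which 2088 name more than 1 gene. Whether counting used strand is not given in the sources used here. The table holds 0 columns of values that belong to no sample. The 2095 entries without a gene name (0.358% to 0.421% of counts) entered neither library sizes nor tests.

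Counts were tested in edgeR 4.0.16 (R 4.3.3) with TMM factors (0.973 to 1.05), the default low-count filter and the quasi-likelihood test, and p-values were adjusted by Benjamini-Hochberg over all 26167 tested entries, called at 0.05. Standard errors were taken from the fold change and its F value, and intervals are 95%. The gene-level test behind the study's own lists is not given in the sources used here. Alternatives were DESeq2 1.42.0, upper-quartile scaling, no filter, a replicate block, limma 3.58.1 on log2(FPKM + 1), log2(FPKM + 0.1) and quantile-normalised values, and leaving out each library. Code was tested on simulated data. Exonic lengths came from GENCODE release 29 on GRCh38, and the length behind an entry's FPKM from its count, FPKM and 576 entries of a single annotated gene. Promoter windows came from RefSeq.

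All members were named, with the 2 other SRSF genes, and from each further list any gene called or else its lowest and highest fold change, plus TRA2B, SRPK1, CLK1, U2AF1 and U2AF2. The members and lists were chosen with earlier results of these data known.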

Additional observations from a re-analysis of the deposited data

How the results depend on the processing

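In the alternatives that kept all 4 libraries, 0 of the 10 members passed the adjusted threshold. With the replicate block and in the 3 limma fits no entry of any kind was called, so no member could be. DESeq2, with the most calls of these, called 0.477% of entries, so 0 of 10 is read as no result about the members. SRSF9 (0.066 to 0.17), SRSF10 (0.17 to 0.26), SRSF11 (0.20 to 0.42) and SRSF3 (-0.17 to -0.034) kept their direction in all 11 alternatives. SRSF10 had an unadjusted p under 0.05 in 9 of 12 fits, the main one included, and SRSF11 in 8. These fits reuse the same 4 libraries and are not independent of each other. In the main fit 4.33% of all tested entries stood under that level by edgeR. The adjusted p of SRSF10 ranged from 0.620 and that of SRSF11 from 0.564 to nearly 1, and the lowest of any member was 0.477. Leaving out 1 library turned the sign of 6 members, whose log2 fold changes ranged over those fits from -0.15 to 0.082 (SRSF1), -0.56 to 0.67 (SRSF2), -0.14 to 0.0063 (SRSF4), -0.11 to 0.027 (SRSF5), -0.60 to 0.045 (SRSF6) and -0.086 to 0.021 (SRSF7). The share of SRSF2 in the family was 20.2% of the FPKM and 8.51% of the counts as means over the 4 libraries, and that of SRSF6 went from 3.09% to 11.4%. The median of the members ranged from -0.11 to 0.042, the latter without DMSO 1. The cause was not tested.

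The count of all entries called was 11, and 10 with upper-quartile scaling, 31 without the filter, 143 with DESeq2 and 0 in each of the 3 limma fits. It ranged from 0 to 30 when 1 library was left out (0 without DMSO 1, 21 without DMSO 2, 30 without SF1-8 1 and 28 without SF1-8 2), where the lone library of an arm is assumed to vary like the others. DESeq2 tested 37155 entries and the main fit 26167, and the cause of the other differences was not tested. The replicate block gave 0 calls in all. No label says whether the shared replicate numbers pair the libraries. Across entries, the difference between replicates in DMSO and that in SF1-8 had a correlation of 0.0165. With only 2 replicate numbers, this value cannot decide whether the libraries were paired. With the block the unadjusted p was 0.0440 for SRSF10 and 0.0518 for SRSF11. With 2 libraries per group, the interval of SRSF2 does not exclude a change of 1.5-fold in either direction, and that of SRSF6 does not exclude a fall of that size.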
